A study of Mus musculus with 63 samples.

Results

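Constitutive distal regions are stretches of open chromatin that were found in every ATAC-seq library of a set of mouse embryonic fibroblasts (mEFs) and that lie far from any annotated gene start. Peaks of 6 libraries, 3 from WT mEFs (replicates 4, 5 and 6) and 3 from Chaserr-/- mEFs (replicates 1, 2 and 3), were merged where they overlapped, on the mm9 assembly. Of 122419 merged regions, 38126 held a peak in all 6 libraries. Of these, 19223 lay more than 10 kb from the start of every gene in the GENCODE vM1 annotation and form the list described here. A further 18795 lay within 10 kb, and 108 were on contigs without an annotated gene and were left out.

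The study asked what the lncRNA Chaserr does to its neighbour Chd2, which encodes a chromatin remodeler, and to chromatin. Chaserr-/- mEFs lack the Chaserr promoter and first exon on both alleles, from mouse lines that the study used interchangeably, and their WT mEFs came from the same pregnancy. A second set held Chaserr-/- Chd2m/m mEFs, which also carry a small frameshift deletion in an early Chd2 exon, with WT mEFs of their own pregnancy, 3 libraries each. RNA-seq of Chaserr-/- and WT mEFs, 3 libraries each with the same replicate numbers, gave the expression of nearby genes. The mEFs are primary cultures and can hold several cell types. The titles and tissue labels of the ATAC-seq libraries read mEF, although the extraction protocol given with them describes dorsal root ganglia. In the RNA-seq libraries, each of the 19 fibroblast markers with a value had a mean of at least 1 FPKM (fragments per kilobase of transcript, scaled to the size of the library), with Vim the most abundant. So had 16 of 16 macrophage and 8 of 11 neuronal genes, and the median over the genes was 126 FPKM for the fibroblast, 28.1 for the macrophage and 1.19 for the neuronal list. These are RNA-seq values and do not check the tissue of the ATAC-seq libraries.

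ATAC-seq maps DNA that a transposase can reach because nucleosomes there are displaced. Far from genes such sites are often enhancers, where transcription factors bind, or sites of CTCF, a protein that shapes chromatin loops. In fibroblasts, AP-1 (dimers of Fos and Jun proteins) binds many enhancers, often near sites of TEAD factors, which act with YAP, and of RUNX factors. The deposited files hold peaks, not reads, so what could be compared was the presence of a peak and its fold enrichment, that is, how many times the signal at the peak's summit exceeded the background around it.

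The 6 windows below show what these regions look like. Each is 300 bases of mm9, plus strand, centred on the median peak summit, with AP-1 or CTCF motifs in capitals and the rest in lower case. The first 3 lie within 300 kb of the Chd2 start, the next pair are the highest ranked members of unique sequence that hold an AP-1 motif, and the last is a region whose rank was higher in each Chaserr-/- library than in each WT library.
Chd2, 53.4 kb from its start, chr7:80740085-80740384: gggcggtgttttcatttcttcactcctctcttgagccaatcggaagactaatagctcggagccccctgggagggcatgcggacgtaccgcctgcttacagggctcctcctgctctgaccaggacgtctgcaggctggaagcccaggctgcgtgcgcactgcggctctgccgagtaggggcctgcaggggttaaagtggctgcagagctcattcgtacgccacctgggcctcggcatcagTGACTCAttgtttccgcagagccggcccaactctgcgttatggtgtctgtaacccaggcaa
Chd2, 75.9 kb from its start, chr7:80763310-80763609: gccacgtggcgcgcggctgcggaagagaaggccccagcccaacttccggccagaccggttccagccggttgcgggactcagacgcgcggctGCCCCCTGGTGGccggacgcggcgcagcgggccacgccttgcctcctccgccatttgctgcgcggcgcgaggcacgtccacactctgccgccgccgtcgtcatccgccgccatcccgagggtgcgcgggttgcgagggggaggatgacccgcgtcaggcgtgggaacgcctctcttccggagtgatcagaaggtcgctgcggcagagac
Rgma, 76.8 kb from its start, chr7:80597422-80597721: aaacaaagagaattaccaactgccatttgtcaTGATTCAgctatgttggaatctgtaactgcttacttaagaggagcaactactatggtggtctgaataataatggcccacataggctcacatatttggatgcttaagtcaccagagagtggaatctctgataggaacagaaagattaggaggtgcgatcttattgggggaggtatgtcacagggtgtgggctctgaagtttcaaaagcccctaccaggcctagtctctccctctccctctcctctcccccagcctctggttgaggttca
Rabgap1l, 261 kb from its start, chr1:162461620-162461919: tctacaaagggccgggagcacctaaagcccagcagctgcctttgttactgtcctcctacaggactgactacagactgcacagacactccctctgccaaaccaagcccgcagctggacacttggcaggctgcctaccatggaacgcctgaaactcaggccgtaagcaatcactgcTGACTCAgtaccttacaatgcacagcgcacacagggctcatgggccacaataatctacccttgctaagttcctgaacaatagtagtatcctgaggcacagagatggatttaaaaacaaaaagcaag
Nr2f2, 99.3 kb from its start, chr7:77411998-77412297: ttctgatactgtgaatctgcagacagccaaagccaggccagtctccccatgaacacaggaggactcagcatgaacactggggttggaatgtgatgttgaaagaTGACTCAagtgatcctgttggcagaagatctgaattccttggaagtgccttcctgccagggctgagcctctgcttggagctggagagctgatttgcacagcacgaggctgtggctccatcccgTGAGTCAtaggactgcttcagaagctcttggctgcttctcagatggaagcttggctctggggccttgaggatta
Slitrk5, 271 kb from its start, chr14:111802860-111803159: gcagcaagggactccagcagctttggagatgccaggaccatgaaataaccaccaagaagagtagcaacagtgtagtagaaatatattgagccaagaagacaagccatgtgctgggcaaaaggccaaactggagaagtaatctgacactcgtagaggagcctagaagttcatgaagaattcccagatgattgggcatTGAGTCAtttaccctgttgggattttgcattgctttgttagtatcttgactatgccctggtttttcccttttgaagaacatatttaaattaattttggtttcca

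The regions were short, with a median width of 623 bases and quartiles of 492 and 802 bases. The median distance to the nearest gene start was 39930 bases, and the largest was 1028314 bases. By the midpoint, 10344 members (53.8%) lay outside protein-coding genes, 8145 (42.4%) in introns and 734 (3.82%) in exons. The 10 kb limit cut through a continuous range of distances. The 3 members just outside it lay 10001, 10002 and 10004 bases from the starts of Filip1l, 4933404O12Rik and D10Wsu52e, with mean ranks within the list at the 34.3, 70.4 and 47.3 percentile. The 3 constitutive regions just inside it lay 9994, 9996 and 9997 bases from the starts of 4933440J02Rik, Elac2 and Islr2.

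Regions found in every library were less often distal than the others. Among regions with a peak in all 6 libraries and a gene on their chromosome, 50.56% were more than 10 kb from a gene start, against 70.89% of those in 5 libraries and 74.86% of those in 1 library. The libraries differed in the number of peaks they gave. WT replicates 4, 5 and 6 had 66967, 70516 and 58324 peaks, and Chaserr-/- replicates 1, 2 and 3 had 62610, 91121 and 93597. Chaserr-/- replicates 2 and 3 therefore stood apart from the other 4 libraries, while Chaserr-/- replicate 1 fell among the WT libraries. Total reads are not part of the peak files, so the depth behind these numbers is unknown.

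Most members stood alone, but some formed clusters. With gaps under 10 kb, 13644 members (71%) had no neighbour, 3930 were in pairs, and 8 clusters held 6 or more members. The largest held 10 members over 31.6 kb (chr6:47604894-47636479), outside protein-coding genes and nearest to Ezh2, which encodes the histone methyltransferase of Polycomb complex PRC2. All 10 members of this cluster had a summit sequence that occurs more than once in mm9, and none had an AP-1 motif. The next 3 clusters, with 7 members each, lay near Gm17296 (chr8:129040673-129075289), inside Cubn, the gene of an endocytic receptor (chr2:13306923-13344500), and inside Palld, the gene of an actin-bundling protein (chr8:64223883-64262125). In these 3 clusters no member had a repeated summit sequence, and 5, 5 and 2 members held an AP-1 motif. Of the clusters of 6, the one with the highest median rank lay near 4921513I03Rik (chr10:120053331-120090244).

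AP-1 motifs were the commonest of the 8 motifs searched in the distal regions, on both strands. The letters were TGANTCA for AP-1, GGAATG for TEAD, TGTGGT for RUNX, CAGCTG for the E-box, CCGGAAG for ETS and TGACGTCA for CRE. An NFI palindrome and a CTCF core were also searched, and no motif contains another. In windows of 300 bases, AP-1 was present in 39.8% of the distal regions, against 9.01% of windows moved 2000 bases to one side. It was present in 25.7% of distal regions with a peak in only 1 library and in 4.73% of constitutive regions within 300 bases of a gene start, called promoter regions here. TEAD was present in 30.1% of the distal regions and 15.8% of the moved windows, and RUNX in 28.4% and 22.2%. CTCF was present in 5.24% and 0.208%, and the NFI palindrome in 0.13% and 0.0208%. The E-box was present in 23.6% of the distal regions, 13.3% of the moved windows and 17% of promoter regions. Against promoter regions ETS showed the opposite order, with 2.45% of distal and 18% of promoter regions. CRE did so as well, with 0.781% and 3.57%. Both were less frequent in the moved windows than in the distal regions, at 1.04% for ETS and 0.172% for CRE. Distal regions also differed in base composition from promoter regions, with a median GC content of 48% against 65.3% (44.3% in the moved windows), which bears on how often a given word occurs. These shares describe letters in the windows and not binding.

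**Figure D1:**
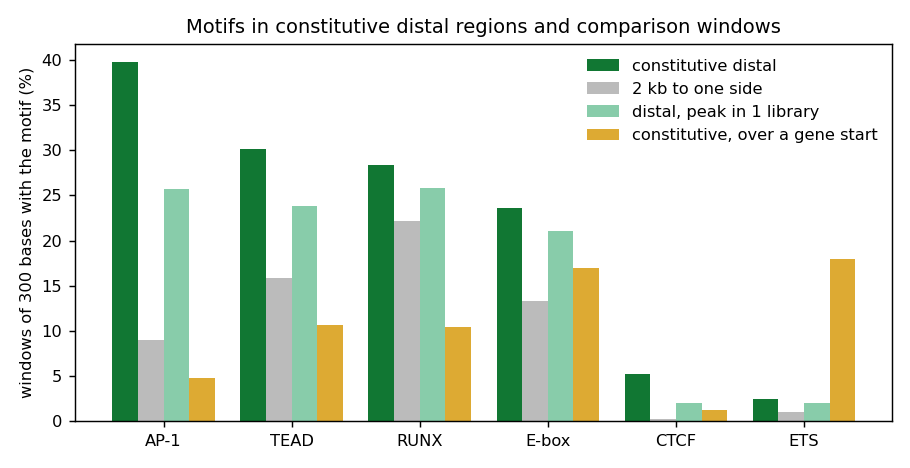
Bars give the share (%) of 300-base windows that hold each of 6 motifs on either strand in 19218 constitutive distal regions, in windows 2 kb to one side, in distal regions with a peak in 1 library and in constitutive regions within 300 bases of a gene start (promoter regions). AP-1 reaches 39.8% in the distal regions and 4.73% in promoter regions, and ETS has the reverse order.

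AP-1 motifs gathered at the summit. They numbered 7.3 per 100 regions in the 20-base bin centred 30 bases to the right of the summit and 0.894 in the bin centred 290 bases to its left. TEAD and RUNX had broader and lower maxima, of 3.79 and 3.04 per 100 regions. CTCF motifs were fewer at the summit itself, with 1.59 and 1.97 per 100 regions 30 bases to the left and right but 0.333 and 0.323 in the bins on either side of the summit. AP-1 and CTCF motifs seldom shared a region, since 1.29% of members with an AP-1 motif also had CTCF, against 7.84% of members without. TEAD motifs were about as frequent with AP-1 (29.6%) as without (30.4%).

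**Figure D2:**
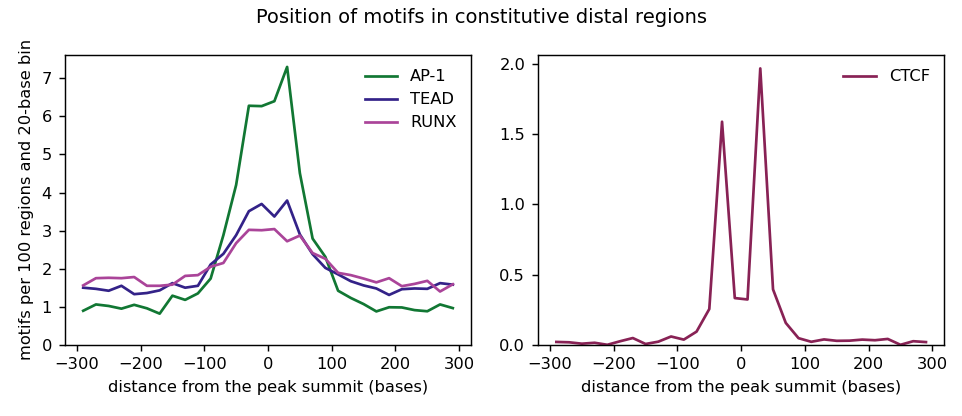
Lines give motifs per 100 constitutive distal regions and 20-base bin (y axis) by distance from the median peak summit in bases (x axis), for AP-1, TEAD and RUNX on the left and CTCF on the right. AP-1 peaks at 7.3 close to the summit, and CTCF has 2 maxima, 30 bases to either side.

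Distal regions had lower fold enrichment than promoter regions in each of the 6 libraries. A region's value is that of its highest peak, and promoter regions were wider, with a median of 1007 bases against 623. The part of width in the difference was not tested. The median fold enrichment of distal regions was 7.71, 8.25 and 6.82 in WT replicates 4, 5 and 6, and 7.8, 8.55 and 9.05 in Chaserr-/- replicates 1, 2 and 3. The medians of the 11666 promoter regions were 11, 10.8 and 10.2 in WT and 10.7, 10.3 and 10.4 in Chaserr-/- libraries. The difference, distal minus promoter, averaged -2.56 (p = 0.0312, two-sided exact test over sign changes of 6 libraries, the smallest p it can give). The same regions were compared in each library, so this p measures agreement between libraries and not the spread between regions. The difference was smallest in Chaserr-/- replicates 2 and 3, at -1.76 and -1.4, the libraries with the most peaks. The genotypes overlapped in the distal medians, with a mean of 7.6 ± 0.722 in WT and 8.46 ± 0.629 in Chaserr-/- libraries (SD, n = 3 each, exact permutation p = 0.2).

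**Figure D3:**
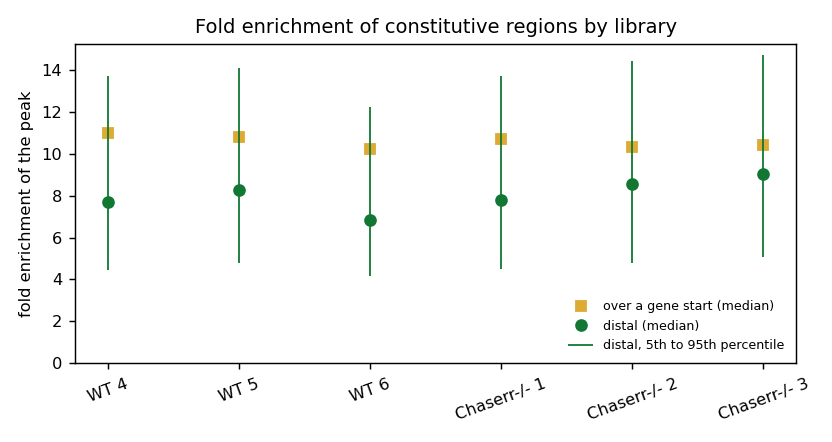
Points give the median fold enrichment of constitutive distal regions (circles) and of constitutive promoter regions (squares) in each library, and lines span the 5th to 95th percentile of the distal regions. The distal median lies below the promoter median in each of the 6 libraries, with the smallest gap (-1.4) in Chaserr-/- replicate 3.

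The genotypes also overlapped in the other measures of whole libraries. In 3 against 3 libraries the exact permutation test cannot give a p below 0.1. Peaks numbered 65269 ± 6271 per WT library and 82443 ± 17220 per Chaserr-/- library (SD, n = 3 each, exact p = 0.3). The share of peaks more than 10 kb from a gene start was 58.2% ± 0.636 and 60.9% ± 3.3 (SD, n = 3 each, exact p = 0.4). Median peak width in the distal regions was 332 ± 25 and 453 ± 96.1 bases (SD, n = 3 each, exact p = 0.2), and the wide values, 493 and 522 bases, were those of Chaserr-/- replicates 2 and 3. The distal regions took 31% ± 2.88 of all peaks in WT and 24.9% ± 6.12 in Chaserr-/- libraries (SD, n = 3 each, exact p = 0.3). This share adds little to the number of peaks, which it follows, since every member has a peak in every library. Their share of all peak width multiplied by fold enrichment was close to even, at 29.8% ± 0.615 and 30.3% ± 0.777 (SD, n = 3 each, exact p = 0.5).

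Within each library the members were then ranked by fold enrichment and the rank was written as a percentile, from 0 for the lowest to 100 for the highest. Ranks of the 19223 members in 2 libraries had Spearman correlations of 0.669 to 0.711 among WT libraries, 0.711 to 0.775 among Chaserr-/- libraries and 0.636 to 0.741 between genotypes, so libraries of unlike genotype were about as alike as replicates. These correlations are across regions, which are not independent. The median SD of a member's rank over 3 libraries was 12.4 percentile points in WT and 11.2 in Chaserr-/- libraries.

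The top of the list was held by sequences that occur more than once in the genome. The highest member (chr6:103599046-103599284) lay in an intron of Chl1, which encodes a neural adhesion protein. Its fold enrichment was 51.5, 53.5 and 51.2 in WT and 48.6, 48.2 and 46.4 in Chaserr-/- libraries. The others of the top 10 lay near Eea1, Gm5614, G6pd2, Dpy19l1, Nxph1, 1700012B15Rik and Limd1 (in an exon of Lars2) and in introns of Lama1 and Gphn. Of these 10 members, 8 had 30 summit bases found more than once in mm9, up to 1407 times at the one in Lama1, and 3 matched the mitochondrial genome (at least 100 bases at 90% identity). None of the 10 had an AP-1 or CTCF motif. Among the top 30 members 21 had a repeated summit, and among all members 505 (2.63%). Of the 5 members that matched the mitochondrial genome, each was in the top 30. Reads from other copies or from mitochondria can be placed on such sites, and how much of their signal arose so was not tested.

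Over the whole list, members of higher rank more often held AP-1 and CTCF motifs. In 5 equal groups by mean rank, from lowest to highest, AP-1 was present in 31.3%, 39.6%, 41.8%, 42.4% and 43.6% of members. CTCF was present in 1.56%, 3.25%, 4.79%, 8.09% and 8.5%, while TEAD stayed between 29.2% and 31.7%. Median distance to a gene start was 42097 bases in the lowest group and 35494 in the highest. Among members of unique summit sequence with an AP-1 motif, the highest lay in an intron of Rabgap1l, near Nr2f2, an orphan nuclear receptor gene, near Ddr2, which encodes a collagen receptor, and near Id4, a gene for an inhibitor of bHLH factors. These members, chosen after their values were seen, had mean ranks of 99.8, 99.6, 99.5 and 99.5. The region near Nr2f2 (chr7:77411804-77412350), which is printed above and has 2 AP-1 motifs, had fold enrichments of 18.2, 18.7 and 17.9 in WT and 20.3, 19.8 and 18.9 in Chaserr-/- libraries. The 3 lowest members lay near Ezh2, inside the cluster of 10, and near Irf2bp2 and Gpm6a, with mean ranks of 0.0052, 0.153 and 0.385.

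No distal region was called between Chaserr-/- and WT mEFs. By the rule each member has a peak in every library, so a site lost or gained with the genotype could not enter this fit. The study itself tested read counts and reported regions of changed accessibility in Chaserr-/- mEFs, mostly reduced. A fit on ranks of peaks does not check that result. limma on the normal scores of ranks among all 38126 constitutive regions, with Benjamini-Hochberg adjustment, called 0 of 19223 members, where the background over all regions tested was 0%. At an unadjusted p under 0.05 there were 1530 members (7.96%), against 7.99% of all regions. The other 11 settings called 0 members as well, with 1086 to 1951 at an unadjusted p under 0.05. Rank differences, Chaserr-/- minus WT, were mostly small. They lay within 10 percentile points for 11022 members (57.3%) and beyond 30 for 650 (3.38%).

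As a description, members whose 3 Chaserr-/- ranks all lay above or all lay below the 3 WT ranks were counted. On ranks among all constitutive regions, 1544 members (8.03%) were higher, against 6.1% of all regions, and 805 (4.19%) were lower, against 7.4%. On ranks within the list the split turned round, with 1012 members higher (5.26%) and 1183 lower (6.15%). Chaserr-/- replicates 2 and 3 also had the smaller gap between distal and promoter regions given above, and the part of that gap in these counts was not tested. On either scale the higher members had more AP-1 motifs. Within the list, 52.4% of the higher, 31.4% of the lower and 39.6% of the remaining members held one, and 15.3%, 4.23% and 9.16% held 2 or more. Their median GC content also differed, at 46.7%, 50.7% and 48%. These groups were chosen by their values, so the shares carry no test.

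Averaged over the members with a motif, the libraries of the genotypes overlapped for 5 of 8 motifs, AP-1 and CTCF among them. The 7645 members with an AP-1 motif had a mean rank of 51.4, 52.8 and 49.7 in WT and 54.8, 51.7 and 54.2 in Chaserr-/- libraries. For the 1764 members with 2 or more AP-1 motifs it was 55.6, 58.4 and 52.9 in WT and 62, 56.4 and 60.4 in Chaserr-/- libraries. Chaserr-/- replicate 2 thus lay among the WT libraries in both. The 1007 members with CTCF had mean ranks of 61.2, 62.5 and 65.3 in WT and 56.5, 66.4 and 63.6 in Chaserr-/- libraries. For 3 motifs the groups did not overlap, by small margins. Mean ranks of the 471 members with ETS were 54.4, 54.5 and 54.8 in WT and 54.1, 52.9 and 52.8 in Chaserr-/- libraries. For the 5460 members with RUNX they were 50, 49.9 and 49.9 in WT and 50.5, 50 and 50.5 in Chaserr-/- libraries, where the nearest values are 0.076 points apart and equal once rounded, and for the 25 with NFI 43.6, 55.3 and 50.8 in WT and 55.7, 55.8 and 56.6 in Chaserr-/- libraries. An exact permutation test of 3 against 3 libraries cannot give a p below 0.1.

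Of members with no overlap between genotypes, the largest positive rank difference within the list was near Pot1a, which encodes a telomere-binding protein (chr6:25786138-25786594). Its fold enrichment was 5.06, 6.49 and 5.23 in WT and 8.89, 11 and 11.8 in Chaserr-/- libraries, a rank difference of 54.8 points (limma adjusted p = 0.477). The next 4 differences, of 50.4 to 52.2 points, were near Slitrk5 (printed above), Nr2f1, Arhgap44 (in an intron of Myocd) and Xrcc6bp1. Each of these 5 regions had its lowest Chaserr-/- value above its highest WT value, but WT values were spread widely, from 1.71 to 52.3 percentile points in the region near Arhgap44. The largest negative difference was near Ypel5 (chr17:73207466-73207949), from 10.1, 9.58 and 9.41 in WT to 4.66, 5.9 and 7.61 in Chaserr-/- libraries, with a rank difference of -57.5 (limma adjusted p = 0.477). The next were near Foxo1, a forkhead factor gene, in an intron of Mdga2, in an exon of Ddx6 and near Nkx6-3, with differences of -56.7 to -50.6. The summit of the Mdga2 region occurs 59 times in mm9. Of these 10 regions, 3 of the higher and 0 of the lower held an AP-1 motif.

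The Chd2 locus holds an array of these regions. Chd2 lies on the minus strand (chr7:80571577-80686632), and 14 members lay within 300 kb of its start. Chaserr is not a gene of this annotation, so its RefSeq promoter sequence was searched in mm9 and found once, which puts the Chaserr start at 80703281, 16.6 kb upstream of that of Chd2. No member lay within 10 kb of it. The peak over this start (chr7:80703221-80703991) was no member, since it was present with fold enrichments of 16.8, 14.2 and 12.7 in WT libraries and absent from each Chaserr-/- library, whose deletion takes out this promoter. Distances here run to the middle of a region, and those beside the sequences above to its nearer edge. The strongest of the 14 was 53.7 kb upstream of the Chd2 start (chr7:80739996-80740576, outside protein-coding genes). Its fold enrichment was 20.4, 15.2 and 15 in WT and 16.7, 15.4 and 14.7 in Chaserr-/- libraries, its mean rank was 97.8, and its window has 1 AP-1 motif. The genotypes overlapped in this region (limma adjusted p = 0.791), and all 6 libraries of the second set had a peak there too.

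Further upstream came members 65.6, 76.7 and 86.5 kb from the Chd2 start, with mean ranks of 63.3, 69.6 and 76.5. The ranks of the last were 90.3, 83 and 79.6 in WT and 61.6, 66.2 and 78.4 in Chaserr-/- libraries, lower in each of the latter (limma adjusted p = 0.774). The one at 76.7 kb has a CTCF motif and is printed above. Closer to Chaserr, members 42.7 and 47.7 kb upstream were weak, with mean ranks of 8.14 and 10.9. The Chaserr-/- ranks of the first were all lower than in WT (8.73, 25.7 and 7.32 in WT and 1.6, 5.3 and 0.2 in Chaserr-/- libraries, limma adjusted p = 0.626). Those of the second were all higher (1.9, 8 and 2.58 in WT and 18.3, 21.5 and 13.2 in Chaserr-/- libraries, limma adjusted p = 0.596). Within Chd2, an intronic member 17.1 kb downstream of the start had ranks of 68.3, 73.6 and 14.8 in WT and 16.2, 25.1 and 12.5 in Chaserr-/- libraries, so that WT replicate 6 fell among the mutants. A second intronic member, 89.1 kb downstream and printed above, had a mean rank of 57.6 with overlapping groups. The others lay in introns of or near Rgma, which encodes an axon guidance protein, and in an intron of Fam174b. Of those near Rgma, the member 115 kb downstream of the Chd2 start (chr7:80571227-80571491) lay just past the 3' end of Chd2, with overlapping groups. In all, by rank within the list the genotypes overlapped in 11 of the 14 members. By that count 1 was higher and 2 were lower without overlap, where 5.26% of all members were higher and 6.15% lower. In fold enrichment itself the 2 lower members overlapped. At 86.5 kb it was 12.2, 11.4 and 9.35 in WT and 8.67, 9.88 and 11.7 in Chaserr-/- libraries. At 42.7 kb it was 4.67, 6.52 and 4.3 in WT and 3.93, 4.87 and 3.35. The higher member, at 47.7 kb, had 3.95, 5.08 and 3.77 in WT and 5.61, 6.44 and 6.04, without overlap.

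**Figure D4:**
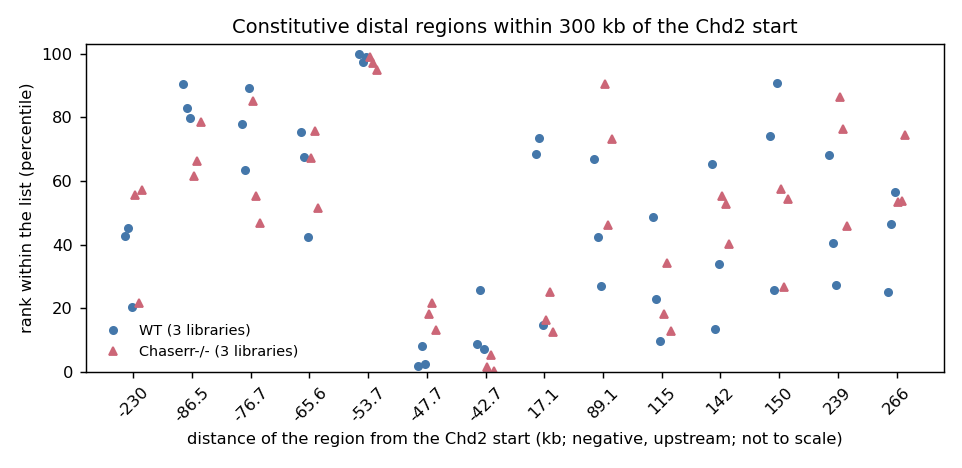
Points give the rank within the list (percentile) of the 14 constitutive distal regions within 300 kb of the Chd2 start in 3 WT libraries (circles) and 3 Chaserr-/- libraries (triangles), ordered by distance from that start in kb. The region 53.7 kb upstream is near the top in each library, and the genotypes overlap in 11 of the 14 regions.

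For the neighbouring genes, each member was assigned to the protein-coding gene with the nearest start. This gave 7611 genes (34% of 22380), at a median distance of 57098 bases. The genes with the most members were Tns3 with 24, Myc, Smad7, Tns1 and Wbscr17 with 21 each, Cited2 and Klf6 with 20 each, Zfp608 with 19, and Lpp and Robo1 with 18 each (Runx1 and Runx1t1 also had 18). Among these genes, Tns1, Tns3 and Lpp encode proteins of focal adhesions, Smad7 an inhibitor of TGF-beta signalling, and Myc, Klf6 and Cited2 regulators of transcription. At Tns1, 18 of the 21 members were intronic, and at Myc none was, the closest lying 63.6 kb away. The nearest start was taken at any distance, so that a gene beside a wide gap can collect many members.

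Lists of fibroblast, matrix, signalling, transcription factor, cytoskeleton, YAP and AP-1 genes had more members per gene than the average protein-coding gene, at 0.864. That average covers unexpressed genes too, while genes with more members had higher expression (below). An average matched for expression was not taken. These lists were drawn up with earlier results of these data known, and their counts are descriptions. Listed genes whose symbol is not in the annotation were left out of the counts here and below. Among them were the mesenchymal Foxf1 and the neuronal Map2, each nearest to 1 member. Of 31 genes of TGF-beta, BMP, PDGF, FGF and Wnt signalling, 28 had at least 1 member, with 147 in all (4.74 per gene), led by Smad7, the receptor gene Tgfbr2 with 14 and the BMP regulator gene Bmper with 12. Of 33 mesenchymal transcription factors, 28 had a member, with 159 in all (4.82 per gene), among them Runx1, and Foxp1 and Tead1 with 14 each. Of 30 extracellular matrix genes, 25 had a member (3.87 per gene), led by the thrombospondin gene Thbs1 with 14 and the protease gene Adamts5 with 13. Of 20 fibroblast markers, 16 had a member (3.4 per gene), among them the collagen genes Col5a1 with 12 and Col1a2 and Col3a1 with 7 each. Of 19 YAP and TEAD targets, 17 had a member (3.63 per gene), led by Asap1 with 10 and Myof with 9. Of 22 genes of the actin cytoskeleton and adhesion, 14 had a member (3.27 per gene), led by Lpp and by Palld with 10. Of 14 genes of the AP-1 family itself, 7 had a member (2 per gene), with 9 at Maf, 6 at Fos and 4 at Jun.

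Of the 7 lists of other cell types, 3 had fewer members per gene than the average gene and 4 had more. Of 16 macrophage genes 4 had a member (0.375 per gene), of 14 skeletal muscle genes 3 (0.286), and of 12 liver genes 2 (0.333). Of 12 epithelial genes 6 had one (0.917 per gene), close to the average. Of 12 endothelial genes 7 had a member (2.58 per gene), led by Cdh5 with 13 and Flt1 with 9, of 11 neuronal genes 9 (2.09), and of 11 chondrocyte genes 7 (1.82), led by the factor gene Sox9 with 9. Of the 23 members near neuronal genes, 18 held an AP-1 motif, the highest share of the 14 lists.

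Genes nearest to a distal region were more often expressed in mEFs. Of the 7611 nearest genes, 6855 had an RNA-seq value, and 13030 other protein-coding genes did. Their median FPKM was 4.13, 4.11 and 4.02 in WT replicates 4, 5 and 6 and 4.31, 4.27 and 4.23 in Chaserr-/- replicates 1, 2 and 3. That of the other genes was 1.58, 1.48 and 1.48 in WT and 1.42, 1.56 and 1.44 in Chaserr-/- libraries. On the log2(FPKM + 0.1) scale the medians differed by 1.43, in the same direction in 6 of 6 libraries (p = 0.0312, two-sided exact test over sign changes, the smallest it can give). The same genes were compared in each library, so this p measures agreement between libraries and not the spread between genes. Between 67.8% and 69.3% of nearest genes had at least 1 FPKM, against 52.5% to 53.6% of others, but among genes with at least 1 FPKM in a library the direction turned round, with a difference of -0.0909 (exact p = 0.0625). Libraries of both genotypes gave the same order. The median of the genes' mean FPKM was higher with more members, from 1.56 for genes with 0 and 3.26 with 1 to 4.24 with 2 to 4, 6.34 with 5 to 9 and 11.3 with 10 or more.

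**Figure D5:**
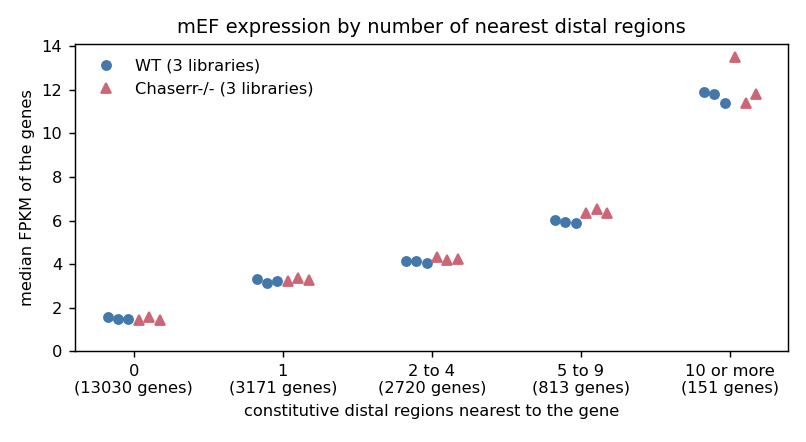
Points give the median FPKM of protein-coding genes (y axis) by the number of constitutive distal regions nearest to them (x axis, with the number of genes) in 3 WT (circles) and 3 Chaserr-/- (triangles) RNA-seq libraries. The medians rise from between 1.42 and 1.58 at 0 regions to at least 11.4 at 10 or more, in both genotypes.

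Chd2 was the 1 nearest gene that edgeR called higher, and 3 were called lower. In the RNA-seq libraries Chaserr, listed there as 1810026B05Rik, was at 8.51, 6.88 and 5.25 FPKM in WT and listed at 0 in each Chaserr-/- library. Chd2, nearest to 7 members, was at 3.32, 3.46 and 3.9 FPKM in WT and 10.5, 8.98 and 10.3 in Chaserr-/- libraries, a log2 fold change of 1.45 (edgeR quasi-likelihood test, adjusted p = 0.00568). Its groups were far apart, and its adjusted p was 0.0048 to 0.0864 by edgeR with 1 library left out, the highest without WT replicate 5. In all, edgeR called 4 of 5286 nearest genes tested, where 0.118% of all 13580 genes were called. The number and the split depended on the setting. DESeq2 called 979 nearest genes (603 higher and 376 lower), 20.6% of those tested against 21.7% of all genes. Without a filter on low counts edgeR called 505 (316 and 189), 7.78% against 7.54%, and with at least 10 counts in every library 508 (292 and 216), 10.1% against 10.9%. In each setting the share of nearest genes was thus near that of all genes. The 3 that fell in the first fit were Mpo, which encodes myeloperoxidase, by 3.03 (edgeR adjusted p = 0.0197), Podn, which encodes a matrix proteoglycan, by 1.09 (edgeR adjusted p = 0.0439), and Laptm5, a lysosomal gene of blood cells, by 0.94 (edgeR adjusted p = 0.0476), each on the log2 scale. Mpo was at 2.72, 3.71 and 6.1 FPKM in WT and 0.64, 0.33 and 0.6 in Chaserr-/- libraries. Podn was at 10.8, 12.3 and 12 FPKM in WT and 4.52, 6.26 and 6 in Chaserr-/- libraries. Without WT replicate 5, WT replicate 6 or Chaserr-/- replicate 3 none of these 3 was called, and without WT replicate 4 only Mpo was. At an unadjusted p under 0.05 there were 1722 nearest genes (32.6%), 943 of them higher, against 33.9% of all genes.

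The summed FPKM was lower in Chaserr-/- libraries without overlap for 6 of the 14 lists. The genotypes overlapped for the other 8, among them the endothelial, neuronal, liver, epithelial, extracellular matrix and actin lists. Sums over all protein-coding genes overlapped as well, at 580402, 564743 and 573738 in WT and 551703, 566823 and 564969 in Chaserr-/- libraries. How often lists of other genes would separate in this way was not tested. Over 16 macrophage genes, with Fcer1g the most abundant and each at a mean of at least 1 FPKM, edgeR called 2 lower, Cd68 and Laptm5, and at an unadjusted p under 0.05 there were 8 lower and 0 higher (16.1% of all genes were lower by that count). Others of this list did not follow, with log2 fold changes of 0.39 for Mrc1, 0.24 for Ctss and 0.02 for Ptprc. The summed FPKM of the list was 980, 797 and 872 in WT and 599, 628 and 647 in Chaserr-/- libraries. Over 14 skeletal muscle genes, 13 of them at a mean of at least 1 FPKM and with Actc1 the most abundant, it was 1229, 884 and 702 in WT and 519, 515 and 472 in Chaserr-/- libraries, with 1 gene called lower (Acta1) and 11 lower at an unadjusted p under 0.05. Fibroblast markers summed to 7397, 7336 and 6990 in WT and 5843, 6140 and 6852 in Chaserr-/- libraries, mesenchymal transcription factors to 892, 1006 and 915 in WT and 755, 819 and 766, and chondrocyte markers to 54.9, 74.3 and 79.5 in WT and 21.8, 50.6 and 53. In these 3 lists no gene was called. Abundant genes weigh most in such a sum. At an unadjusted p under 0.05 fibroblast markers went both ways, with 2 higher (Twist1 and Prrx1) and 3 lower (Col1a1, Fn1 and Loxl1). Their median log2 fold change was -0.23. By the same count 10 of 33 mesenchymal transcription factors and 3 of 11 chondrocyte markers were lower, and 0 of either list were higher. Of all genes, 16.1% were lower and 17.7% higher. Col1a1 was at 1305 ± 39.1 FPKM in WT and 863 ± 168 in Chaserr-/- libraries (SD, n = 3 each, edgeR adjusted p = 0.0522), while Twist1 was at 45.3 ± 6.42 and 89.2 ± 21.9 (SD, n = 3 each, edgeR adjusted p = 0.0522) and Prrx1 at 82.7 ± 3.65 and 125 ± 37.3 (SD, n = 3 each, edgeR adjusted p = 0.0757). The list of TGF-beta and related signalling was the remaining lower one, with sums of 1010, 1037 and 960 in WT and 842, 874 and 900 in Chaserr-/- libraries and 1 gene called lower, the Wnt receptor gene Fzd2. In bulk RNA, fewer cells of a type and less RNA per cell cannot be told apart, and the part of these cells in the results was not tested. The number of calls depended on the libraries used. Without Chaserr-/- replicate 2 it was 1044 nearest genes (643 higher and 401 lower), 19.5% against 20.5% of all genes, and without Chaserr-/- replicate 1 it was 365, 6.81% against 7.33%. Without WT replicate 4 it was 2 (0.0509% of all genes were called), without WT replicate 6 or Chaserr-/- replicate 3 it was 1 (0.0363% and 0.036% of all genes), and without WT replicate 5 it was 0 (0.0144% of all genes, and 1161 nearest genes at an unadjusted p under 0.05).

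RNA of the genes nearest to members without overlap between genotypes was compared as a description, since no member was called. The genes nearest to members with higher ranks among all constitutive regions and no overlap had a median log2 fold change of 0.03 (956 genes tested by edgeR). Those nearest to members with lower ranks had -0.08 (557 genes), all nearest genes 0.01 and all genes tested -0.02. Of the genes with the most members edgeR called none. Tns3 was at 34.9 ± 2.79 FPKM in WT and 29.2 ± 1.91 in Chaserr-/- libraries (SD, n = 3 each, edgeR adjusted p = 0.117), Klf6 at 36.6 ± 4.59 and 49.9 ± 6.8 (SD, n = 3 each, edgeR adjusted p = 0.0832), and Smad7 at 10 ± 2.78 and 9.07 ± 1.22 (SD, n = 3 each, edgeR adjusted p = 0.561).

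The distal regions were found again in the second set wherever that set had many peaks. WT replicates 1 and 3 of that set, with 65345 and 65665 peaks, had a peak in 94.16% and 93.04% of the members, and Chaserr-/- Chd2m/m replicates 2 and 3, with 80703 and 81986 peaks, in 94.56% and 96.68%. WT replicate 2 and Chaserr-/- Chd2m/m replicate 1, with 18661 and 28349 peaks, had one in 28.5% and 39.9%. The shares by genotype overlapped, and the mean difference was 5.15 percentage points (exact permutation p = 0.5, n = 3 each). It was -16.6 without WT replicate 2. Only 43 members (0.2237%) had no peak in any of these 6 libraries, among them the member with the lowest rank, and 3883 (20.2%) had one in all. In the poorest library, constitutive regions within 10 kb of a gene start were found more often, at 49.94%.

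No member was called in the second set either. limma called 0 of 3880 members between Chaserr-/- Chd2m/m and WT mEFs, with 60 (1.55%) at an unadjusted p under 0.05 against 1.25% of 12698 regions. For the difference between the genotype effects of both sets it called 0 of 3881 members, with 167 (4.3%) at an unadjusted p under 0.05 against 3.13% of 12445 regions. The members in these fits are those with a peak in each library used, the poorest included, and do not stand for all members.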

How the data were processed

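For ATAC-seq of mEFs, the authors aligned reads to mm9 with Bowtie2 and called peaks in each library with MACS2 (versions are not given in the sources used here). The deposited peaks carry a score, a fold enrichment (a ratio), and the -log10 of p and of q. For RNA-seq, the authors deposited RSEM expected counts, FPKM and TPM per RefSeq gene, from strand-specific libraries, with 9672637 to 11209060 expected counts per library. Of 24990 rows, 86.8% were matched to GENCODE vM1. TPM, the score and the authors' p were not used.

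Peaks were merged, and the highest fold enrichment in a region was its value. limma 3.58.1 (trend) and edgeR 4.0.16 on rounded counts (DESeq2 1.42.0 as an alternative) were run over all features with Benjamini-Hochberg adjustment at 0.05, after tests on simulated data. Repeats were counted by exact matches of 30 summit bases, and mitochondrial matches with blastn 2.17.0. Sequences came from mm9, and the Chaserr promoter from RefSeq (GRCm38.p6). Named were the 10 highest and 3 lowest members, up to 5 of the largest rank differences each way, members near Chd2, members at the 10 kb limit, the 5 largest clusters, called nearest genes, and genes with the most members. Members and lists were chosen with earlier results of these data known. The study describes the mEFs of each background as coming from separate embryos, and the labels do not name the embryo of a library. Whether replicate numbers of the second set pair its libraries is not known, and the main fit did not pair them.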

Additional observations from a re-analysis of the deposited data

How the results depend on the processing

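Counts of distal regions stayed within 1.5 times of 19223, from 13557 (peaks with -log10 q of at least 5) to 22500 (5 kb limit), and from 19356 to 22792 when 1 library was left out. Calls of distal regions remained 0 in each of the 11, 12 and 14 other settings of the 3 limma fits. With the replicate block, the second set gave 0 calls and 86 members at an unadjusted p under 0.05. Same-numbered libraries had correlations of -0.131, -0.142 and 0.468, and the others ranged from -0.398 to 0.425. These values do not decide whether the numbers pair the libraries. Nearest genes called by edgeR numbered 4, against 979 with DESeq2, 505 without a filter on low counts, 508 with at least 10 counts in every library, 7 with the nearest start on either side, and 0 to 1044 when 1 library was left out. As shares of the nearest genes tested, DESeq2 and both filters gave 20.6%, 7.78% and 10.1%, against 21.7%, 7.54% and 10.9% of all genes. The cause was not tested. The expression difference of nearest genes, 1.43, became -0.0909 among genes with at least 1 FPKM in a library, and the number of unexpressed genes is what that setting removes. Other settings gave 1.06 to 1.58. With 1 library left out it was 1.4 to 1.45, and the distal minus promoter fold enrichment was -2.79 to -2.38, and 5 libraries cannot give a p below 0.0625. Without 1 library the Chaserr-/- minus WT differences in whole libraries kept their sign except 1, and 4 of them moved by over 1.5 times, with peaks from 11596 to 27090 (17174 with all; the highest without Chaserr-/- replicate 1), the share of peaks over 10 kb from a gene start from 1.51 (without Chaserr-/- replicate 3) to 4.6 percentage points (2.72; without Chaserr-/- replicate 1), median fold enrichment from 0.481 (without WT replicate 6) to 1.2 (0.868), and the share of peaks in the distal regions from -9.65 (without Chaserr-/- replicate 1) to -4.2 (-6.13). Median peak width moved less, from 85.7 to 175 bases (120). The exception, the share of peak width multiplied by fold enrichment, ranged from -0.0295 (without Chaserr-/- replicate 1) to 0.749 percentage points (0.418), and the presence difference from -16.6 to 23.7, with -16.6 without WT replicate 2, -3.61 without Chaserr-/- Chd2m/m replicate 2 and -4.67 without its replicate 3. Leaving out 1 library for the number of distal regions and for library measures, and both settings on repeats and gene types, were added after the data were seen. Depth of the ATAC-seq libraries is unknown.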

Other observations

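The X chromosome had few constitutive distal regions. It held 258, or 1.55 per Mb, against 7.67 per Mb on the autosomes, where single chromosomes ranged from 6.1 (chromosome 14) to 8.81 (chromosome 10). Promoter regions on X numbered 2.16 per Mb against 4.57, and distal regions with a peak in only 1 library 3.58 against 10.4, while protein-coding genes numbered 5.59 per Mb against 8.66. The members on X had a median rank of 45.8, 44.6 and 45.1 in WT and 45.3, 47.1 and 49.6 in Chaserr-/- libraries.

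Of 12 epithelial genes, 4 were higher in Chaserr-/- cells by edgeR when p was not adjusted (under 0.05), against 17.7% of all genes tested, and 0 were called after adjustment. Their summed FPKM was 207, 145 and 107 in WT and 222, 204 and 218 in Chaserr-/- libraries. Sox9, with 9 members, was at 15.2, 17.7 and 18 FPKM in WT and 7.33, 10.9 and 9.78 in Chaserr-/- libraries, without overlap and with an edgeR adjusted p of 0.0522. The sum of 11 chondrocyte markers, Sox9 among them, was also lower without overlap (54.9, 74.3 and 79.5 FPKM in WT and 21.8, 50.6 and 53 in Chaserr-/- libraries), with log2 fold changes of -1.15 for Acan and -0.87 for Col2a1 (edgeR adjusted p = 0.0564 and 0.147), and its part in the Sox9 difference was not tested. Cdh5, an endothelial cadherin gene with 13 members, was at 12, 8.63 and 2.93 FPKM in WT and 0.85, 6.77 and 4.58 in Chaserr-/- libraries, which overlap.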
